A study of Mus musculus with 10 samples.

Results

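Branched-chain amino acid catabolism is described here through 10 listed genes, Bcat2, Bckdha, Bckdhb, Dbt, Bckdk, Ppm1k, Ivd, Mccc1, Hibadh and Acadsb, taken by symbol out of the 21098 named genes of the count table. The tissue was the gastrocnemius (GAS), a calf muscle, of male wild-type C57BL/6J mice made obese by a high fat diet (diet-induced obese, DIO). Mice of 1 group received saline (CTRL, 5 libraries). Mice of the other received weekly subcutaneous injections of RES-010, an anti-miR-22 antisense oligonucleotide (ASO, 5 libraries), at 10 mg/kg for 14 weeks. In both groups the diet began at 9 weeks of age and ran for 9 weeks before treatment, and the muscles are given as those of 30-week-old mice, an age that these periods do not add up to exactly. All mice were thus on the high fat diet, and neither lean mice nor mice given a control oligonucleotide are among the libraries used. In the paper's body weights at the start of treatment, the lightest of the DIO mice were controls. The part of this in the results was not tested.

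Leucine, isoleucine and valine are the branched-chain amino acids, and skeletal muscle carries out much of the first step of their breakdown, in which the mitochondrial aminotransferase Bcat2 converts them to keto acids. The branched-chain α-keto acid dehydrogenase (BCKDH) complex then removes their carboxyl group in the committed step. Bckdha and Bckdhb form its E1 decarboxylase, Dbt is its E2 core and Dld is an E3 subunit that it shares with other dehydrogenases. The kinase Bckdk phosphorylates and inactivates the complex, and the phosphatase Ppm1k removes the phosphate. Past this step the routes part. Ivd, the isovaleryl-CoA dehydrogenase, and Mccc1, the biotin-carrying subunit of methylcrotonyl-CoA carboxylase, belong to the leucine route, Acadsb, the short/branched-chain acyl-CoA dehydrogenase, acts mainly on the isoleucine route, and Hibadh, the 3-hydroxyisobutyrate dehydrogenase, belongs to the valine route.

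The microRNA that the ASO is directed against is shown first, because pairing with its seed is the usual way in which a transcript is recognized. Its mature sequence is that of RefSeq (GRCm38.p6), with the seed, bases 2 to 8, in capitals.
miR-22-3p: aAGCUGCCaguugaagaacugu
The heptamer that pairs with this seed, GGCAGCT, was searched on the transcribed strand only. It was found in the longest protein-coding 3′UTR of 2 of the 10 genes, Ppm1k with 2 matches and Ivd with 1, against 21.7% of the 7781 tested genes with such a UTR. Within the segments that were counted, Ppm1k held 2 matches and Hibadh held 1, against 8.74% of all 7819 genes tested. These are all the matches found in the members, read from GRCm39 with the heptamer in capitals and 8 bases on each side.
Ppm1k, chr6:57483849-57483855, minus strand: ctgcttttGGCAGCTggaataag
Ppm1k, chr6:57483819-57483825, minus strand: gtttctgtGGCAGCTcacactga
Ivd, chr2:118713521-118713527, plus strand: tgggctaaGGCAGCTatatgggg
Hibadh, chr6:52523450-52523456, minus strand: ataggtaaGGCAGCTtgttggcc
Both Ppm1k matches and the Hibadh match lie inside the segment counted for the gene. The Ivd match lies in the 3′UTR of a longer transcript, past the end of the counted segment. No match was found in the other 7 genes in these windows, and a match is a description of the letters only.

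Counts were made on segments, the last 500 bp of each annotated 3′UTR, and added up over each gene. The last annotated end of a gene means here the farthest end among its segments in the table, and upstream distances are counted from it. Library totals were between 1606909 and 2116720 counts in CTRL and between 2239186 and 2632560 with the ASO, so every ASO library was the deeper. Levels are counts scaled to a common library size (CPM), with library sizes scaled by TMM, a scaling that assumes most genes are alike. Differences are log2 fold changes of ASO over CTRL with their standard errors, and adjusted p-values come from the quasi-likelihood test of edgeR, corrected by the Benjamini-Hochberg method over all genes or segments tested, with a threshold of 0.05. Over all 7819 genes tested, 29.2% were past the threshold, 11.7% higher and 17.5% lower, with a median log2 fold change of −0.03. The labels number the libraries and give no identifier of the animal, so the p-values set the difference between groups against the spread between these libraries. Summed markers of muscle fibers were higher with the ASO without overlap, at 84633 to 130006 CPM against 40592 to 79763 CPM. Of the 7 markers 4 were tested, and 2 of these were higher past the threshold. Mb and Tnnt3 had no count and Myh1 had few. The part of this difference in the results on the members was not tested, and in bulk RNA fewer cells of a type and less RNA per cell cannot be told apart.

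Among the 9 members that could be tested, 1 was higher with the ASO (Ivd) and 3 were lower (Dbt, Mccc1 and Acadsb), a count to be read against the shares of 11.7% and 17.5% over all genes. The other 5 did not pass the threshold. The median over the 9 was 0.07, beside −0.03 for all genes. In 3 members the groups did not overlap, with the ASO libraries of Ivd above and those of Mccc1 and Acadsb below, and over all genes 7.98% lay above and 13.4% below in this way. The largest difference by far was that of Acadsb.

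**Figure D1:**
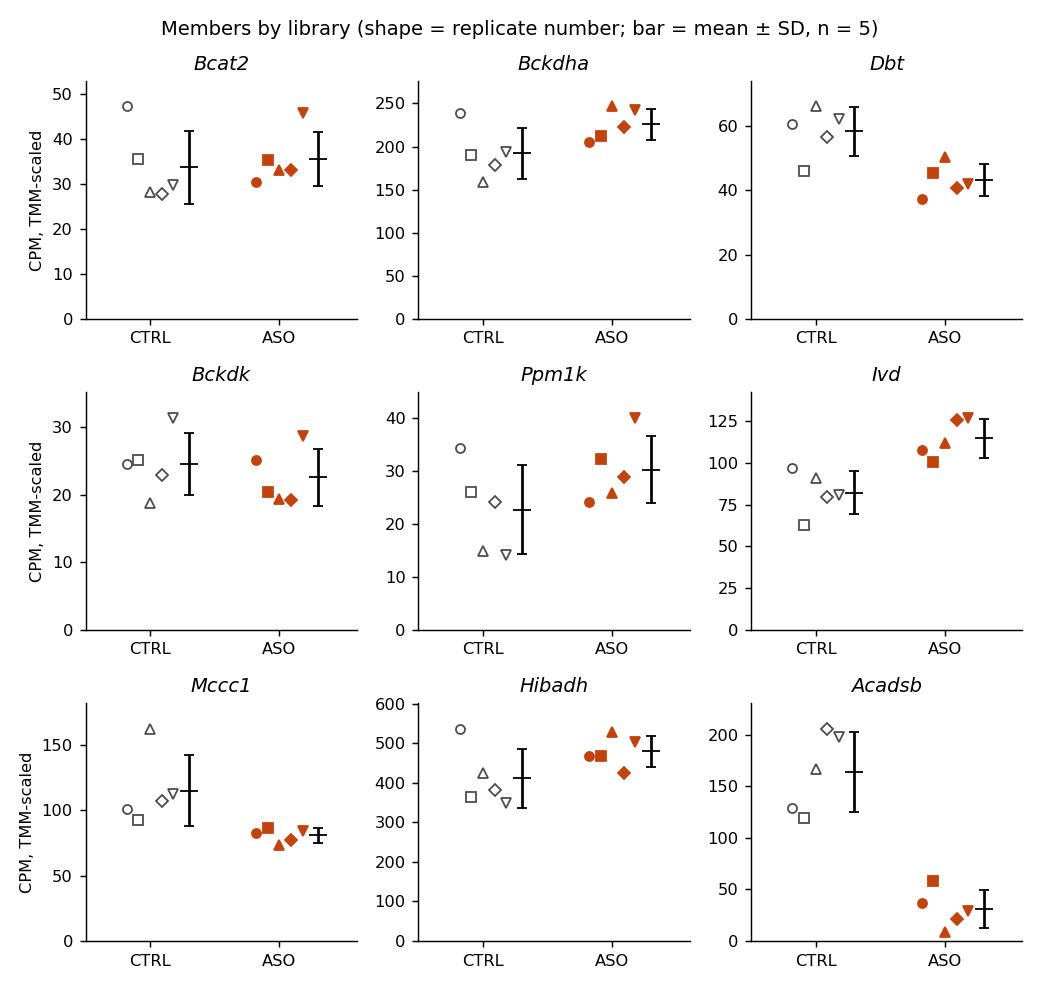
Level of each of the 9 counted members in CPM (vertical axes, TMM-scaled, each from 0) in the 5 CTRL libraries (open symbols) and the 5 ASO libraries (filled symbols), where the shape gives the replicate number and the bar the mean ± SD. Acadsb, Mccc1 and Ivd are the 3 genes whose groups do not overlap, and Acadsb has all ASO libraries at 58.2 CPM or less and all CTRL libraries at 119 CPM or more.

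Bcat2, the aminotransferase of the first step, was at 30.4, 35.3, 33.0, 33.0 and 45.7 CPM in ASO replicates 1 to 5 and at 47.2, 35.4, 28.2, 27.7 and 29.8 CPM in CTRL replicates 1 to 5. The groups overlapped, with the highest value in CTRL replicate 1 and the next in ASO replicate 5. The log2 fold change was 0.07 (95% interval −0.29 to 0.43, adjusted p = 0.79). All of its counts fell on 1 segment, chr7:45238631-45239130, which belongs to a transcript annotated to nonsense-mediated decay (NMD). It has 401 bp in exons of the canonical transcript, the rest being intronic, and 138 bp not shared with another segment. The segment at the last annotated end, wholly in the last exon of the canonical transcript, has 1 bp unshared and had no count. The value of Bcat2 is thus that of the counted segment only.

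In the BCKDH complex, the E1α subunit Bckdha was at 206, 213, 247, 223 and 242 CPM with the ASO and at 239, 191, 159, 178 and 194 CPM in CTRL. Of the CTRL libraries only replicate 1 reached the range of the treated ones. Its log2 fold change was 0.23 (95% interval −0.03 to 0.50, adjusted p = 0.21), and B3gnt8 lies on the opposite strand of its segment. The E1β subunit Bckdhb had 0 counts in all 10 libraries. Only 1 bp of its segment is free of overlap with another segment, so that this 0 says nothing of whether the gene is transcribed.

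Dbt, the E2 core, was at 37.2, 45.4, 50.3, 40.9 and 42.0 CPM with the ASO and at 60.8, 46.2, 66.2, 56.6 and 62.3 CPM in CTRL. CTRL replicate 2 lay among the ASO libraries and the other 4 lay above all of them. The mean fell from 58.4 ± 7.66 to 43.2 ± 4.97 CPM (SD, n = 5 each), which the fit put at −0.44 on the log2 scale (standard error 0.14, edgeR adjusted p = 0.034, two-sided exact permutation p = 0.0159). This call was lost on leaving out any library but ASO replicate 3 or CTRL replicate 2 (adjusted p up to 0.0954).

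The Dbt counts came from a pair of segments that went separate ways. On the segment at the last annotated end, chr3:116343131-116343630, 475 counts were found with the ASO and 384 in CTRL, for a log2 fold change of 0.14 (segment standard error 0.16, adjusted p = 0.51 in the edgeR fit of single segments). The other segment, chr3:116332329-116332828, lies 10802 bp upstream, ends a transcript annotated to NMD and has 91 bp in exons of the canonical transcript, the rest being intronic. It held 2, 5, 0, 3 and 5 counts in the ASO libraries and 33, 23, 42, 34 and 53 in CTRL, so that every treated library was far below every control. Its log2 fold change was −3.77 (segment standard error 0.48, adjusted p = 9.65e-05 in the same fit), and its share of the Dbt counts was 32.5% in CTRL and 3.06% with the ASO. With segments that reach into introns left out, Dbt had a log2 fold change of 0.00 (adjusted p = 0.997, and 0.00897 to 0.997 over all alternatives).

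The enzymes that switch the complex did not pass the threshold. The kinase Bckdk was at 25.1, 20.4, 19.5, 19.2 and 28.8 CPM with the ASO and at 24.5, 25.2, 18.8, 23.0 and 31.4 CPM in CTRL, with a log2 fold change of −0.12 (95% interval −0.49 to 0.25, adjusted p = 0.66). The phosphatase Ppm1k was at 24.1, 32.3, 25.8, 28.8 and 40.1 CPM with the ASO and at 34.4, 26.1, 14.8, 24.2 and 14.0 CPM in CTRL, with a log2 fold change of 0.41 (95% interval −0.09 to 0.90, adjusted p = 0.25). Both pairs of groups overlapped, and the CTRL libraries of Ppm1k were the most spread of any member relative to their mean. Within a library, the log2 ratio of Ppm1k to Bckdk CPM was −0.06, 0.66, 0.41, 0.58 and 0.48 with the ASO and 0.49, 0.05, −0.34, 0.07 and −1.16 in CTRL. That is a mean of 0.42 ± 0.28 beside −0.18 ± 0.62 (SD, n = 5 each), and the groups overlapped, with ASO replicate 1 lowest of its group and CTRL replicate 1 highest of the controls. The lncRNAs 4930533I22Rik and Gm45193 lie on the opposite strand of the Ppm1k segment, and the strand option of the counting is not given in the sources used here.

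Ivd, which oxidizes isovaleryl-CoA in the leucine route, was the member that rose. It was at 108, 101, 112, 126 and 127 CPM with the ASO and at 97.1, 62.9, 90.9, 79.7 and 80.8 CPM in CTRL, and the lowest treated library lay just above the highest control. The mean rose from 82.3 ± 13.0 to 115 ± 11.6 CPM (SD, n = 5 each), and the fitted log2 fold change was 0.48 (standard error 0.14, edgeR adjusted p = 0.022). Its two-sided exact permutation p was 0.00794, the smallest that 252 labellings of 5 against 5 allow. All of its counts were on its only segment in the table, chr2:118712891-118713390, and the longer transcript that holds its seed match ends beyond it. Scaling by total counts lowered it to 0.29 (adjusted p = 0.16), while the median of all genes moved from −0.03 to −0.21 with that scaling. The call was also lost without ASO replicate 5 (adjusted p = 0.055) or CTRL replicate 4 (adjusted p = 0.054), within a range of 0.00409 to 0.28 over all alternatives.

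Mccc1, which acts after Ivd in the same route, was at 83.0, 86.6, 73.2, 77.2 and 83.9 CPM with the ASO and at 101, 92.8, 163, 107 and 112 CPM in CTRL. All treated libraries lay below all controls, and CTRL replicate 3 stood above the other controls. The mean fell from 115 ± 27.5 to 80.8 ± 5.48 CPM (SD, n = 5 each), with a fitted value of −0.51 on the log2 scale (standard error 0.16, edgeR adjusted p = 0.028, two-sided exact permutation p = 0.00794). The call was lost without any 1 of the 5 ASO libraries (adjusted p up to 0.0864) and held without any 1 of the controls.

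Its counts were spread over 4 segments on the minus strand of chromosome 3. The segment in the last exon of the canonical transcript, chr3:36013982-36014161, held 94, 96, 127, 138 and 98 counts with the ASO and 83, 87, 121, 53 and 49 in CTRL, and its log2 fold change was 0.34 (segment standard error 0.21, adjusted p = 0.21 in the edgeR fit of single segments). The segment of the last annotated end, chr3:36013461-36013960, ends a transcript annotated to NMD and lies outside the canonical transcript. It had 95 counts with the ASO and 78 in CTRL, and a log2 fold change of 0.10 (standard error 0.37). Neither passed the threshold.

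The remaining Mccc1 segments also end transcripts annotated to NMD. That at chr3:36029945-36030444, 16484 bp upstream and with 109 bp in canonical exons, held 37, 41, 14, 22 and 23 counts with the ASO and 50, 49, 76, 55 and 46 in CTRL, and its log2 fold change was −1.18 (segment standard error 0.29, adjusted p = 0.00545). That at chr3:36039135-36039634, 25674 bp upstream and with 108 bp in canonical exons, held 31, 46, 16, 12 and 22 counts with the ASO and 71, 50, 111, 59 and 86 in CTRL, and its log2 fold change was −1.75 (segment standard error 0.34, adjusted p = 0.00151). The treated libraries were below the controls on both, although they were the deeper ones. With segments that reach into introns left out, Mccc1 had a log2 fold change of 0.16 (adjusted p = 0.53, and 0.0113 to 0.79 over all alternatives). The lncRNA Gm15952 lies on the opposite strand along all 4 segments.

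Hibadh, of the valine route, was at 469, 469, 530, 426 and 505 CPM with the ASO and at 537, 364, 425, 381 and 350 CPM in CTRL. As for Bckdha, CTRL replicate 1 lay high, here above every treated library. The log2 fold change was 0.22 (95% interval −0.06 to 0.51, adjusted p = 0.27), on 1 segment, chr6:52523213-52523712, that carries a seed match.

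Acadsb was at 36.7, 58.2, 8.88, 20.9 and 28.8 CPM with the ASO and at 129, 119, 166, 206 and 198 CPM in CTRL. Treated libraries were spread widely, with ASO replicate 3 lowest and ASO replicate 2 highest, and none came near a control. The mean fell from 164 ± 39.2 to 30.7 ± 18.5 CPM (SD, n = 5 each), 5.33-fold lower by the fitted log2 fold change of −2.41 (standard error 0.38, edgeR adjusted p = 0.000812, two-sided exact permutation p = 0.00794). Leaving out each library in turn gave −2.76 to −2.14, past the threshold each time.

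Of its counts 98.9% lay on 1 segment, chr7:131045993-131046492, which is wholly in the last exon of the canonical transcript and 4181 bp upstream of the last annotated end. There, 73, 137, 18, 50 and 60 counts were found with the ASO and 271, 252, 334, 347 and 350 in CTRL. The segment at the last end, chr7:131050174-131050673, had 7 counts over all ASO libraries and 14 over all CTRL libraries, too few to be tested. The decrease of Acadsb therefore rests on a single upstream position of a long 3′UTR, and no fold can be given for its end. Fgfr2, a growth factor receptor gene, lies on the opposite strand of both segments.

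**Figure D2:**
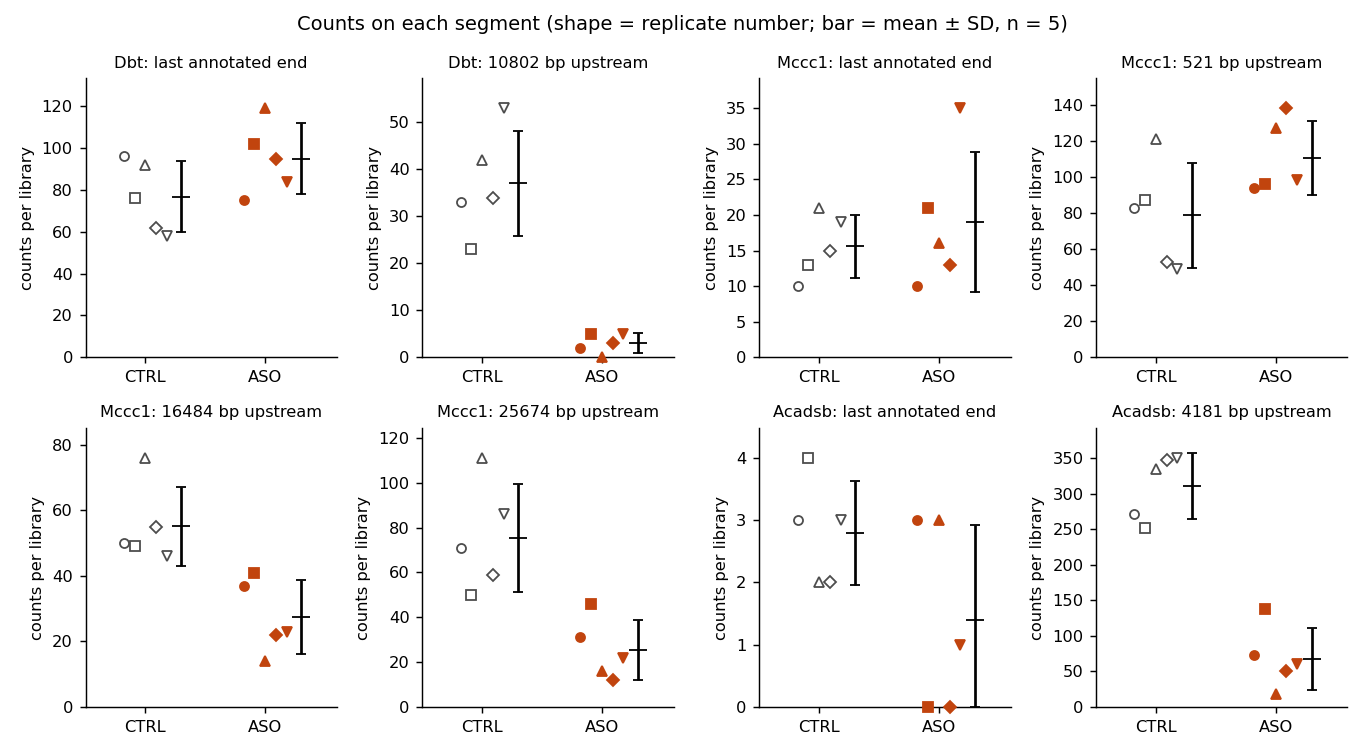
Counts per library (vertical axes, each from 0, not scaled for depth) on every tested segment of Dbt, Mccc1 and Acadsb and on the last segment of Acadsb, with open symbols for CTRL, filled symbols for ASO, the shape for the replicate number and the bar for mean ± SD. The segments 10802, 16484, 25674 and 4181 bp upstream have all ASO libraries below all CTRL libraries, and the segments at or 521 bp from the last annotated end have overlapping groups.

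Position along the transcript was related to the direction of the difference across the whole table, not only in these genes. The share of all counts on segments at least 1000 bp upstream of the last annotated end of their gene was 14.9% to 18.2% in the ASO libraries (median 16.6%) and 22.8% to 29.7% in CTRL (median 25.4%), without overlap. Of all 3737 tested segments that far upstream, 53.7% were lower with the ASO and 5.43% higher, with a median log2 fold change of −0.86. The 247 of them wholly in introns of the canonical transcript did not divide this way. Of these, 12.1% were lower and 13.0% higher, with a median of 0.07. Nearer the end, of 6921 segments 8.99% were lower and 21.6% higher, with a median of 0.21. The members divide in the same manner. All 4 tested member segments at least 1000 bp upstream were lower, at −3.77 to −1.18, and of the 9 nearer the end 1 was higher and 8 did not pass the threshold, at −0.08 to 0.52.

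Set beside segments of the same kind, the members differed in how far they stood out. For Ivd, 0.52 on its segment (adjusted p = 0.0157) compares with quartiles of −0.21 and 0.53 among the 5880 segments in last exons under 1000 bp upstream, of which 21.5% were higher. Acadsb at −2.40 was below the lower quartile of −1.57 for last-exon segments at least 1000 bp upstream, of which 47.9% were lower. Dbt at −3.77 was also below the lower quartile, −2.06, for segments partly exonic and partly intronic at least 1000 bp upstream, of which 67.8% were lower. Both upstream segments of Mccc1 lay between the quartiles of that kind, −2.06 and −0.50. What sets the balance between upstream and end segments in these libraries was not tested.

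**Figure D3:**
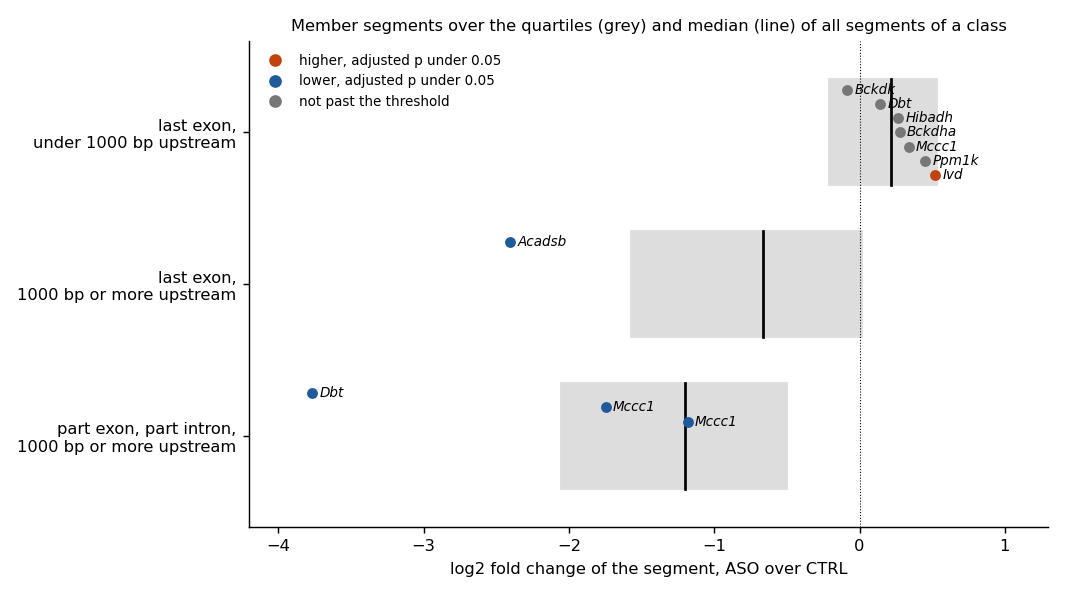
Log2 fold change of ASO over CTRL (horizontal axis) for the member segments of 3 kinds of place on the transcript (points, colored by the test), over the quartiles (grey) and median (line) of all tested segments of that kind. Near the end, points run from −0.08 (Bckdk) to 0.52 (Ivd) within the grey box, and Acadsb at −2.40 and the upstream Dbt segment at −3.77 lie to the left of theirs.

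Between genes, levels were compared per kilobase of a segment in the last exon with no shared bases, which leaves out Bcat2 and Bckdha. In CTRL, Hibadh led at 823 ± 152 CPM per kb (SD, n = 5), above every library of the others. Next were Acadsb at 325 ± 78.6, Mccc1 at 220 ± 69.4 and Ivd at 165 ± 26.0, and neighbors in this run overlapped in their libraries. Dbt followed at 78.1 ± 11.9, then Bckdk at 49.2 ± 9.15 and Ppm1k at 45.2 ± 16.9, and the libraries of Ppm1k overlapped those of both Dbt and Bckdk. With the ASO, Hibadh still led at 959 ± 78.9, Mccc1 and Ivd were at 271 ± 37.7 and 230 ± 23.1, and Acadsb stood at 60.1 ± 37.5, a level that overlapped those of Dbt (83.6 ± 10.7), Ppm1k (60.2 ± 12.9) and Bckdk (45.2 ± 8.40). The Acadsb value is that of its upstream segment and the others are at or near the end. The Mccc1 segment has 180 bp and those of the other genes 500 bp. The part of this shorter length in the place of Mccc1, such as above Ivd, was not tested.

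The other genes of the pathway comprised 28 symbols, among them Bcat1, the cytosolic aminotransferase, and Klf15, a regulator. The rest serve transport into the cell and the mitochondrion, the shared E3, the later steps of each route, propionate handling and the supply of biotin and cobalamin. Of all 28, 22 were tested, and 3 were higher, 5 were lower and 14 did not pass the threshold. Over all genes 11.7% were higher and 17.5% lower. The median log2 fold change of the 22 was −0.10, beside −0.03 over all genes. Slc25a44, Hsd17b10 and Pccb had no count. No segment of theirs has a base free of overlap with another segment, so this says nothing of whether they are transcribed. Bcat1, Slc3a2 and Slc43a1 had too few counts to be tested (67, 11 and 6 over all libraries).

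In the leucine route, Mccc2, the partner subunit of Mccc1 in the carboxylase, fell from 26.6 ± 9.70 to 4.59 ± 1.55 CPM (SD, n = 5 each), or −2.51 on the log2 scale (standard error 0.33, edgeR adjusted p = 0.000369). Like the decrease of Mccc1, that of Mccc2 was counted on an NMD-annotated segment, here its only one with counts and 41792 bp upstream. This segment has 54 bp in canonical exons, the rest being intronic. The Mccc2 segment at the last annotated end has 3 bp unshared and no count, so no fold can be given for that end. Auh, the hydratase of the next step, fell from 65.4 ± 2.89 to 49.0 ± 4.09 CPM with no overlap (log2 fold change −0.42, adjusted p = 0.017), mainly on an NMD-annotated segment at the last annotated end, partly intronic and with 145 bp unshared. Its call was lost without the filter on low counts (adjusted p = 0.0706, within 0.00187 to 0.0706 over all alternatives). Acat1 and Oxct1, which handle ketone bodies and acetoacetyl-CoA, did not pass, at 0.33 and −0.42. The Oxct1 value joins −0.05 at the end with −1.86 on a segment 1381 bp upstream (adjusted p = 0.000206 in the edgeR fit of single segments).

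In the isoleucine and valine routes, Acad8, the isobutyryl-CoA dehydrogenase, fell to a log2 fold change of −1.07 (standard error 0.26, edgeR adjusted p = 0.00931). Most of its counts were on an NMD-annotated segment 4927 bp upstream, with 157 bp in canonical exons. The values of Echs1, Hibch and Aldh6a1 were −0.39, −0.69 and −0.60 with adjusted p-values of 0.0715, 0.0649 and 0.0558 from edgeR, and none passed. Pcca, the biotin-carrying subunit of propionyl-CoA carboxylase, fell from 57.3 ± 11.7 to 20.5 ± 9.03 CPM (log2 fold change −1.48, adjusted p = 0.00286). It was counted only 151949 bp upstream of its last annotated end, on an NMD-annotated segment with 94 bp in canonical exons. Acad8, Pcca and Mccc2 have no value with segments that reach into introns left out. Mcee and Mmut, which carry the product of propionyl-CoA carboxylase on to succinyl-CoA, were at 0.24 and −0.15 and did not pass.

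Genes for cofactors went in both directions. Hlcs, which attaches biotin to the carboxylases, fell with a log2 fold change of −0.61 (adjusted p = 0.0217 from edgeR), at −1.64 on its segment 1530 bp upstream and −0.12 on that 424 bp upstream. Btd, which releases biotin for reuse, rose by 0.81 on the log2 scale (adjusted p = 0.0457) on a segment at the end. Mmaa, which serves the cobalamin cofactor of Mmut, rose from 49.7 ± 7.52 to 87.5 ± 20.7 CPM with no overlap (log2 fold change 0.82, standard error 0.18, adjusted p = 0.00521). It did so on an NMD-annotated segment 4310 bp upstream (973 counts with the ASO and 471 in CTRL), where 5.43% of all segments that far upstream were higher. Among transporters, Slc7a8, a subunit of an exchanger of large neutral amino acids, rose from 17.9 ± 7.03 to 30.2 ± 4.56 CPM (log2 fold change 0.75, adjusted p = 0.0429) with overlapping groups. The calls of Slc7a8, Btd and Hlcs were lost when single libraries were left out, 7 of the 10 for Slc7a8 (ASO 1, 2, 3 and 5, CTRL 1, 4 and 5), 7 for Btd (ASO 1, 3 and 5, CTRL 1, 2, 4 and 5) and 4 for Hlcs (ASO 1 and 3, CTRL 3 and 4), with adjusted p up to 0.0925, 0.101 and 0.0616.

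By position, of the 8 tested segments of these genes at least 1000 bp upstream 6 were lower, 1 was higher (Mmaa) and 1 did not pass, beside 53.7% lower and 5.43% higher among all segments that far upstream. Of the 17 nearer the end, 3 were higher (Slc7a8, Btd and the end segment of Mmab at 0.46), 1 was lower (Auh) and 13 did not pass, beside 21.6% higher and 8.99% lower among all segments there.

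**Figure D4:**
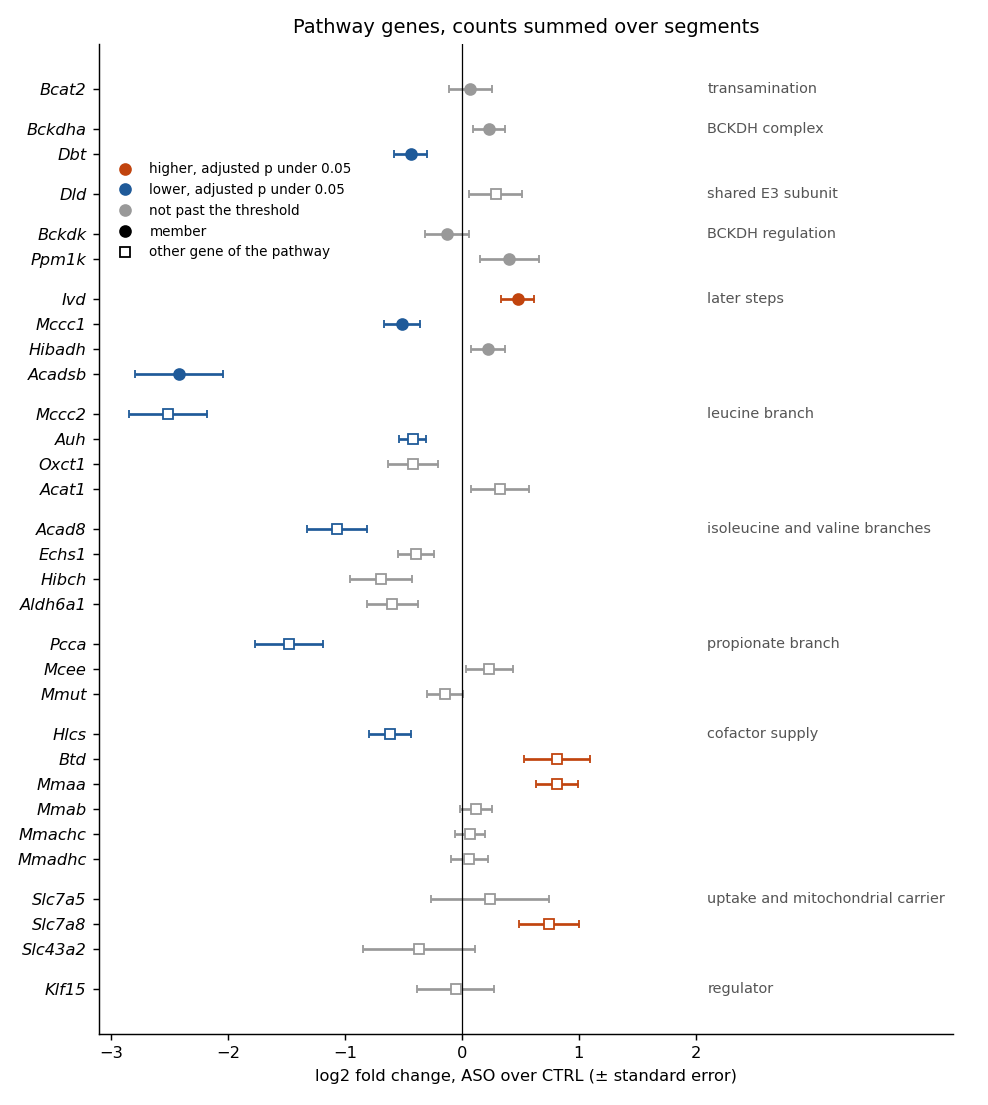
Log2 fold change of ASO over CTRL with its standard error (horizontal axis) for the 9 members (circles) and 22 other genes of the pathway (squares), counts summed over segments and ordered by role. Acadsb at −2.41 and Mccc2 at −2.51 lie farthest to the left, 4 genes in all (Ivd, Slc7a8, Btd and Mmaa) are marked higher, and Ivd, Slc7a8 and Btd lost that mark with total-count scaling.

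Markers of other cell types overlapped between the groups. For slow fibers their summed levels were 28.9 to 7766 CPM with the ASO and 82.0 to 2550 CPM in CTRL. Of 8 listed markers 6 were tested and 0 passed the threshold, with Tnnt1 without a count. For adipocytes the levels were 720 to 3758 against 846 to 13740 CPM (7 listed, 6 tested, 0 past the threshold, Cfd with few counts). For macrophages they were 69.3 to 530 against 230 to 1400 CPM (6 listed, 5 tested, 1 lower, Adgre1 without a count). Fibroblast markers were at 38.2 to 256 against 190 to 340 CPM (5 listed, 3 tested, 1 lower, Dcn without a count, Pdgfra with few). Endothelial markers (132 to 313 against 152 to 259 CPM) and Schwann cell markers (35.7 to 526 against 75.9 to 157 CPM) overlapped too. For each, 4 were listed, 3 were tested and 0 passed, and Pecam1 had few counts. Blood markers also overlapped (219 to 1351 against 759 to 1193 CPM, 3 listed, 2 tested, 0 past the threshold, Alas2 without a count). CTRL replicate 3, highest in adipocyte and macrophage markers, was also the highest library for Mccc1. Leaving it out gave Mccc1 a log2 fold change of −0.36 and left its call in place.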

How the data were processed

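Gastrocnemius RNA of ASO-treated and control mice was sequenced from stranded poly(A) libraries, 5 for each group. After trimming with fastp, the authors mapped the reads on GRCm39 by STAR and used featureCounts on the last 500 bp of 3′UTRs of Gencode M25, and they deposited unnormalized counts on 52423 segments. The strand option is not given in the sources used here, and 4 other per-sample columns were not used. Segments were placed on GENCODE M39, which holds 52361 of the identifiers. The other 62 (0.0197% of the counts) were kept as features of their own. A count of 0 can mean that a segment shares its bases with another.

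Counts were summed by gene and tested with edgeR 4.0.16 in R 4.3.3 (TMM, filter by group, quasi-likelihood test, Benjamini-Hochberg adjustment, threshold 0.05), and each segment was fitted in the same way. Total counts per library, 1606909 to 2632560, set the precision of low values. Exact two-sided permutation tests ran over all 252 labellings on log2(CPM + 1). Alternatives were DESeq2 1.42.0 and limma-voom (limma 3.58.1), other scalings and filters, the replicate number as a block, the most distal segment only, libraries drawn down to the shallowest and each library left out. Leaving out segments that reach into introns was chosen after seeing the data. The fits were tested on simulated data. Python 3.11.15 was used for the remaining steps.

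All members are named, as are the other pathway genes past the threshold and further genes on which a result turns. The members and lists were chosen with earlier results of these data known. Of the pathway list, 1 gene was left out of every list count and figure and is not reported here. Within a group no pair of libraries agreed within sampling noise (lowest chi-square per degree of freedom 6.27 over 20 pairs), so none was counted as a repeat. Coordinates are 1-based on GRCm39.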

Additional observations from a re-analysis of the deposited data

Results flagged for a closer look

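In 8 of the 82 sets of 5 libraries looked at, 1 library stood apart from the rest by Dixon's criterion for 5 values (a gap over 0.71 of the range), which chance does in about 1 in 20 sets. Mccc1 was at 163 CPM in CTRL replicate 3, a library that also had the highest summed adipocyte markers (13740 CPM) and macrophage markers (1399.9 CPM). ASO replicate 4 had the highest summed slow fiber markers (7765.6 CPM) and Schwann cell markers (526 CPM), and in it Slc43a2, an amino acid transporter gene, was at 48.8 CPM. In ASO replicate 3, Dld, the E3 subunit, was at 495 CPM. Acad8 was at 17.7 CPM in CTRL replicate 4. Of these genes only Mccc1 and Acad8 were past the threshold between groups, and the part of these libraries in their results was not tested beyond leaving each of them out.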

How the results depend on the processing

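The count of all genes past the threshold, 2281 of 7819 tested, fell to 992 of 6081 tested with the most distal counted segment only. It was otherwise between 1638 and 2587. Total-count scaling gave 528 genes higher and 1821 lower and upper-quartile scaling 1261 and 1207, against 916 and 1365. The count of members past the threshold, 4, was 2 with upper-quartile scaling, without the filter or with the replicate block, 1 with segments reaching into introns left out, 0 with the most distal segment only, and 1 to 4 on leaving out single libraries. The count of other pathway genes past the threshold, 8, was 5 with the most distal segment only, 4 without segments reaching into introns, and 5 to 9 on leaving out single libraries, and these are not all the same genes.

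Acadsb kept its direction and call in every fit that gave it a value (−2.76 to −2.14), and the distal-segment fit gave none. Dbt was no longer past the threshold with DESeq2 (−0.39), upper quartile (−0.35), no filter (−0.41), the replicate block (−0.43), the distal segment (−0.14) or libraries drawn down (−0.43), was at 0.000757 with segments reaching into introns left out, and ran from −0.51 to −0.37 on leaving out single libraries. Mccc1 lost its call with upper quartile (−0.42), no filter (−0.48), the replicate block (−0.49) and the distal segment (−0.17), turned to 0.16 with segments reaching into introns left out, and ran from −0.58 to −0.36. Ivd lost its call with total counts (0.29), the distal segment (0.24) and segments reaching into introns left out (0.38), and ran from 0.40 to 0.55. Bcat2 turned to −0.11 with total counts, −0.15 with the distal segment and −0.0225 without ASO replicate 5, and ran up to 0.23. Hibadh turned to −0.00874 with the distal segment. Neither Bcat2 nor Hibadh was past the threshold in any fit. All counts of Ivd, Bcat2 and Hibadh lay on a single segment each, so the distal-segment fit used the same counts of these genes. For Ivd and Hibadh the same holds with segments reaching into introns left out. Their values in these fits moved with the set of genes fitted and its scaling, not with a choice of segments in these genes. Dbt was read there on its end segment, which was at 0.14 in the fit of single segments.

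Replicate numbers did not pair the libraries: same-numbered libraries had correlated deviations of −0.43 to 0.16, and 0 of 5 matched its own number best. With the replicate block 1838 genes were past the threshold. Auh and Hlcs were not past it with that block (adjusted p = 0.0599 and 0.0508 from edgeR). The end segment of Acadsb, with 7 counts over all ASO libraries and 14 over all CTRL libraries, was left untested by the filter on low counts.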
